A study of Homo sapiens with 12 samples.

Results

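Replication-independent histone variants are the 10 genes H2AFY, H2AFY2, H2AFZ, H2AFX, H2AFV, H2AFJ, H3F3A, H3F3B, H1F0 and H1FX. They were found by gene name among the 60504 genes of the deposited tables, each under a single entry. All 10 passed the filter on low values (1 TPM or above in no fewer than 2 of the libraries compared) in every comparison. RNA was sequenced from T24, an established bladder cancer cell line, to find the genes that respond to U11, the small nuclear RNA of the minor spliceosome. For the knockout there were 2 libraries with that label (CRISPR/Cas9 with a pair of guides) beside 2 of untreated T24 cells. For the overexpression there were 2 libraries each of line labels 79, 86 and 87, made from T24 cells stably transfected with a U11 plasmid, and 2 libraries of untreated T24 cells. Both kinds of cells went through monoclonal selection, so a line may be a single clone. The labels do not say which clone a library came from or what the line numbers stand for. They also do not say that libraries of a group came from separate cultures, so P values measure the spread between these libraries, which may be technical.

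Histone variants differ from the bulk histones in when they are made. The replication-dependent histone genes (named HIST in these tables) are transcribed in S phase, and their mRNAs end in a stem-loop in place of a poly(A) tail. The variants are made through the whole cell cycle from mRNAs with a poly(A) tail and are placed into chromatin by dedicated chaperones. H2AFY and H2AFY2 encode macroH2A1 and macroH2A2, H2A forms with a large macro domain that are known from the inactive X chromosome and from silent genes. H2AFZ and H2AFV encode the pair of H2A.Z proteins found at promoters, H2AFX encodes H2AX, which is phosphorylated around DNA breaks, and H2AFJ encodes H2A.J, an H2A form close to the bulk protein. H3F3A and H3F3B encode the same H3.3 protein. H1F0 and H1FX encode linker histones, the first of which is known to accumulate in resting and differentiated cells.

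The exception to the poly(A) rule can be seen in the sequence. Of the 10 genes, 1 carried the histone stem-loop letters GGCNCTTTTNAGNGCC, where N is any base (read on the sense strand of GENCODE release 44 transcripts), and this was H2AFX. The letters were present in 63 of the 82 HIST genes of the tables that were found in GENCODE (76.8%) and in 14 of the other 62608 genes (0.0224%). In H2AFX they lie in the 3′ UTR at chr11:119094898-119094913 of hg38 on the minus strand, at bases 553 to 568 of a transcript of 1592 bases, so that 1024 bases follow the stem-loop. The H2AFX stem-loop is shown in capitals with 5 bases on each side, above the most frequent of the 6 forms among HIST genes, which 36 of them carried. The 16 letters of H2AFX were those of 0 of the 63 HIST genes.
H2AFX: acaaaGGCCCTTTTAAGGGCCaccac
HIST genes: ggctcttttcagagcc

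The promoters are shown for H2AFY2, the member with the largest changes, and for H2AFX, among those with the most copies of a motif common in histone promoters. RefSeq promoters (GRCh38.p14, the 250 bases before a start) were at hand for 9 of the 10 genes, with 2 starts for H2AFY and 4 for H3F3A. The letters CCAAT, the core of that motif, were searched on both strands and occurred in 7 of the 9 genes. Of the 35116 promoters in the table, 32.0% held the letters. All percentages in this paragraph are per promoter, and a gene with several starts has more chances of a match. H2AFY held CCAAT in 1 of 2 promoters and H3F3A in 3 of 4. The letters CCAAT were present 4 times each in H2AFX, H2AFV and H3F3B, and in neither H2AFY2 nor H1FX. The letters TATAAA were present in H2AFZ, H2AFX, H3F3B and H1FX (10.7% of all promoters), and the letters GGGCGG in H2AFY, H2AFZ, H2AFV and H3F3A (42.6% of all promoters). The promoter of H2AFY2 held none of the 3. A match or its absence describes these letters only. The promoters of H2AFY2 (chr10:70052596-70052845, plus strand) and of H2AFX (chr11:119095466-119095715, minus strand) are shown with CCAAT on either strand in capitals.
H2AFY2: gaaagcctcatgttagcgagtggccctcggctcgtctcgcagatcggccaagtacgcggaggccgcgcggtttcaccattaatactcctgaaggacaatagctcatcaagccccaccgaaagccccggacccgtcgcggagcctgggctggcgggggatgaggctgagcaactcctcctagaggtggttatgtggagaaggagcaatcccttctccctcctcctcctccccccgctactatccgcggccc
H2AFX: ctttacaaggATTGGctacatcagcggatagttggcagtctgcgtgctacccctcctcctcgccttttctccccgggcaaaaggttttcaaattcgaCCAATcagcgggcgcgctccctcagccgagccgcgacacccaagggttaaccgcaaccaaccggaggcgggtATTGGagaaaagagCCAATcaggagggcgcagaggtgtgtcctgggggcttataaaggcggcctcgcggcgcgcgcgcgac

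The genes lie apart in the genome (hg38): H3F3A at chr1:226061851-226072001, H1FX at chr3:129314771-129316277, H2AFZ at chr4:99948086-99950388, H2AFY at chr5:135333900-135399914 and H2AFV at chr7:44826791-44848083. H2AFY2 lies at chr10:70052796-70112280, H2AFX at chr11:119093854-119095467, H2AFJ at chr12:14774383-14778002, H3F3B at chr17:75776434-75785893 and H1F0 at chr22:37805093-37807436. In gene structure the canonical transcripts of H2AFX, H2AFJ, H1F0 and H1FX had 1 exon, those of H3F3A and H3F3B had 4, those of H2AFZ and H2AFV had 5, and those of H2AFY and H2AFY2 had 9. U11 pairs with the start of U12-type introns, which often read AT or GT followed by ATCCTT. None of the introns annotated in the 8 members that have any (43 in H2AFY2, the most) started with these letters, while 631 of 39107 genes with introns did so (1.61%).

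Before the comparisons, the level of U11 itself was read from its gene RNU11 (the 2 entries of that name summed). The knockout controls had 21.35 and 23.82 TPM and the libraries labelled knockout more, 31.64 and 37.40 TPM, which goes against the label. It was 0.03 and 0.62 TPM in the overexpression controls, 0.18 and 0.41 TPM in line 79, 3.98 and 3.72 TPM in line 86 and 61.86 and 53.60 TPM in line 87. Line 79 therefore overlapped its controls. By quantitative PCR the paper found U11 lower in its knockout cells and higher in its overexpressing cells than in wild-type T24. How well these libraries capture a small nuclear RNA was not tested. The depth was 9.07 to 15.33 gigabases of aligned sequence per library. The bladder epithelial identity was partial. The keratins KRT7, KRT8, KRT18 and KRT19 were at 90.28 TPM or more in every library. The uroplakins UPK1A, UPK1B, UPK2 and UPK3A stayed at or under 0.44 TPM. Of the other markers on this list, EPCAM ran from 0.09 to 2.32 TPM, GATA3 from 2.38 to 17.41 TPM and PPARG from 18.88 to 54.55 TPM. Of the leukocyte markers, PTPRC, CD3E and ITGAM stayed under 1 TPM and CD68 reached 6.31 TPM.

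**Figure D1:**
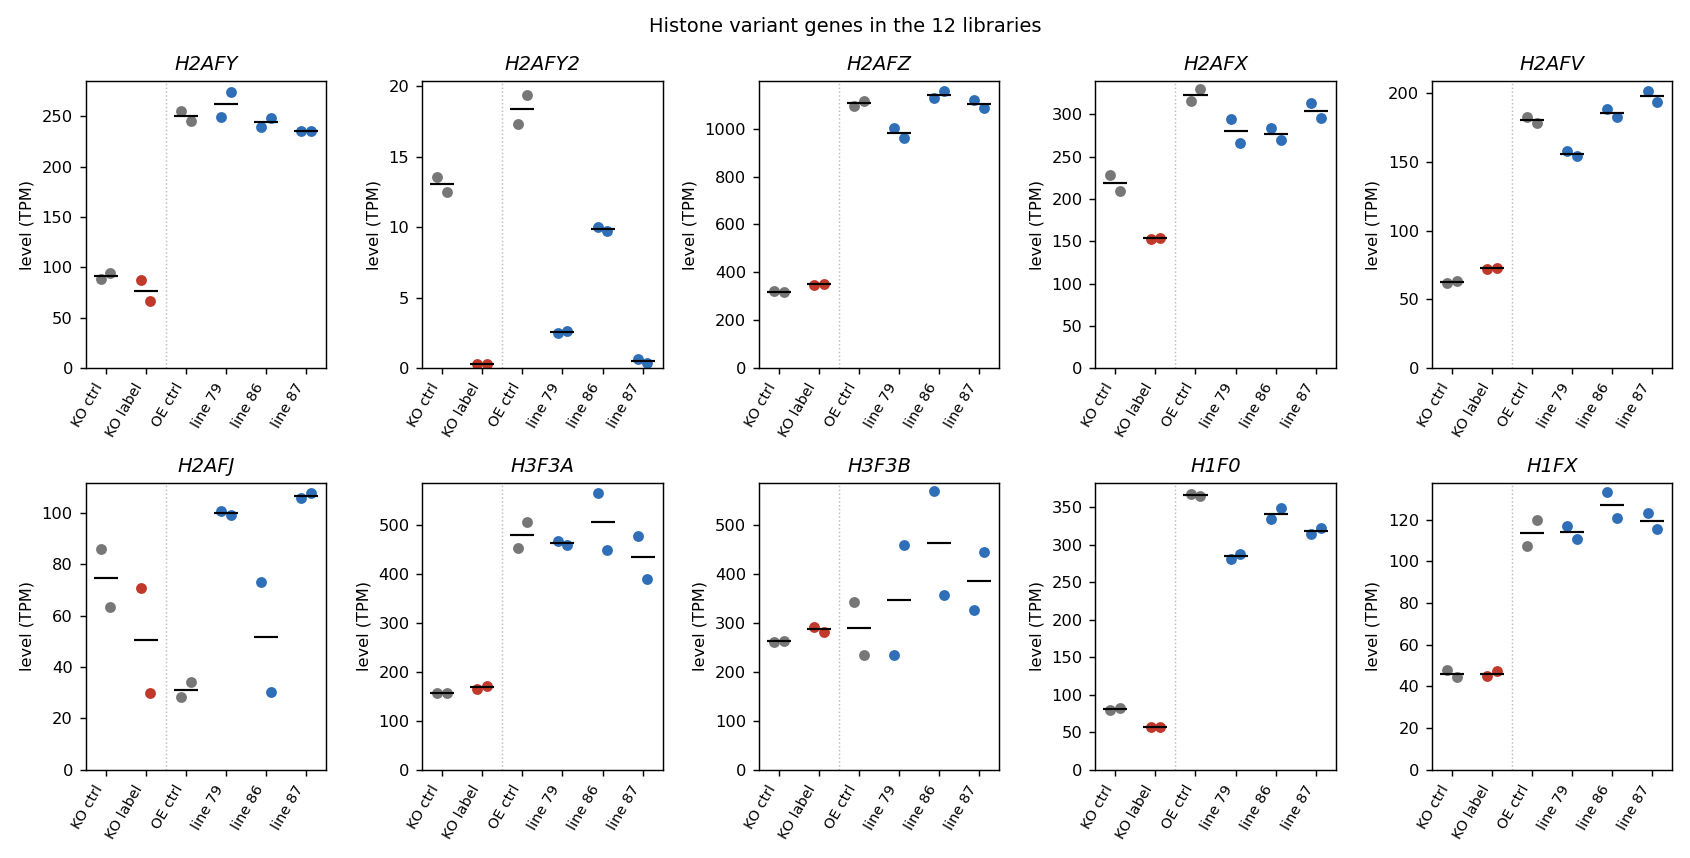
Level of each variant gene in TPM (linear axes from 0) in the 12 libraries; points are libraries, bars are group means, KO and OE stand for knockout and overexpression, ctrl for control, and the dotted line parts the comparisons. H2AFY2 is the gene whose treated libraries lie under their controls by the largest ratio, with 0.31 and 0.30 TPM in the libraries labelled knockout and 0.36 to 10 TPM in the lines.

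H2AFZ had the highest TPM of the members in both control sets, and the order of the others differed between the sets. TPM is scaled by transcript length and library size, so the genes can be ranked. In the knockout controls H2AFZ was highest at 320.84 and 317.59 TPM, followed by H3F3B, H2AFX, H3F3A, H2AFY, H1F0, H2AFJ, H2AFV, H1FX and H2AFY2, the last at 13.56 and 12.51 TPM. H2AFJ, at 86.09 and 63.23 TPM, overlapped its neighbours H1F0 and H2AFV in that order. In the overexpression controls H2AFZ stood at 1093.7 and 1117.4 TPM and H2AFY2 was again last at 17.33 and 19.42 TPM. There H3F3B, at 343.00 and 235.03 TPM, overlapped both H2AFX and H2AFY. The order depends on which transcripts the reads were assigned to. By aligned bases over all exons of a gene (coverage, scaled to TPM), H2AFX was first in the knockout controls (225.41 and 205.93 against 138.94 and 136.84 for H2AFZ), and H2AFJ (13.16 and 14.19) was below H2AFY2 (17.33 and 19.42) in the overexpression controls.

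The control sets did not overlap in TPM for any member but H3F3B. It had 261.27 and 264.17 TPM in the knockout controls, between the 235.03 and 343.00 TPM of the overexpression controls. By coverage H2AFJ overlapped (17.52 and 13.97 against 13.16 and 14.19). As a ratio of mean TPM, knockout over overexpression controls, the median of all genes was 0.549, and H1F0 (0.222), H2AFZ (0.289), H3F3A (0.328), H2AFV (0.348), H2AFY (0.366) and H1FX (0.407) lay under it. H2AFX (0.678), H2AFY2 (0.709), H3F3B (0.909) and H2AFJ (2.40, and 1.15 by coverage) lay above it. The HIST genes together were 224-fold higher in the knockout controls, with 34278.5 and 31589.2 TPM against 145.9 and 147.8 TPM. H2AFX, the variant with a stem-loop, stood at the 73.6 percentile of all genes by this ratio. The labels call the RNA poly(A) RNA and the methods describe removal of ribosomal RNA, and the control sets carry different library number series in their titles. Preparation, series and time cannot be told apart, so no test was made between the sets and each comparison was read against its own controls.

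The question of the knockout comparison was which of these genes differed between libraries labelled U11 knockout and untreated cells. H2AFY2 was almost lost. Its controls had 13.56 and 12.51 TPM, against 0.31 and 0.30 TPM under the knockout label. The groups were far apart, with means of 13 ± 0.742 TPM and 0.305 ± 0.00911 TPM (SD, n = 2 each), a 42.7-fold ratio. On the log2(TPM + 1) scale, which understates changes of low genes, it fell by 3.43 (SE 0.12, limma, adjusted P = 0.00276). At 0.30 TPM the remaining signal is under the 1 TPM of the filter, so its exact size carries little weight. With either library labelled knockout left out the adjusted P was 0.133 and 0.114 (limma), in a fit that takes the lone library to vary like the controls, and without either control the gene no longer passed the filter.

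H2AFX and H1F0 were lower by a smaller and nearly equal step. H2AFX, the DNA break mark, had 228.41 and 209.55 TPM in its controls, against 153.09 and 153.95 TPM under the knockout label (log2 fold change -0.51, SE 0.08, limma, adjusted P = 0.037). H1F0, the linker histone of resting cells, had 80.17 and 81.95 TPM in its controls, against 56.99 TPM in both libraries labelled knockout (log2 fold change -0.50, SE 0.08, limma, adjusted P = 0.0376). Neither group overlapped its controls, and neither change reached 1.5-fold in TPM. The median of all genes moved by 0.11 in this comparison and by -0.02 after median ratio scaling, so that relative to that median H2AFX was at -0.62 and H1F0 at -0.61. With that scaling H2AFX was at -0.66 (unadjusted P = 0.00647, limma, adjusted P = 0.0587) and H1F0 at -0.65 (adjusted P = 0.0409), both past 1.5-fold. With 1 library left out, the adjusted P ranged from 0.0183 to 0.2 for H2AFX and from 0.0493 to 0.192 for H1F0 (limma). It was also above 0.05 for both without a filter (0.13 and 0.116) and without the mean-variance trend (0.0643 and 0.0581).

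None of the other members was called. H2AFZ had 320.84 and 317.59 TPM in its controls, against 347.99 and 350.72 TPM under the knockout label (log2 fold change 0.13, SE 0.07). H2AFV, its partner, stood at 62.04 and 63.48 TPM against 72.32 and 72.88 TPM (0.21, SE 0.08), which is 0.10 above the median of all genes. Neither passed the test (adjusted P = 0.272 and 0.176, limma). The H3.3 genes H3F3A (156.45 and 157.36 TPM against 165.53 and 170.91 TPM) and H3F3B (261.27 and 264.17 TPM against 292.22 and 282.64 TPM) had log2 fold changes of 0.10 and 0.13, at -0.01 and 0.02 from the median of all genes. H1FX had the same mean in both groups, 46.1 TPM, and H2AFY (88.89 and 94.76 TPM against 87.21 and 66.31 TPM) had a log2 fold change of -0.27 (SE 0.15, limma, adjusted P = 0.3). H2AFJ (86.09 and 63.23 TPM against 70.81 and 29.95 TPM) had the second largest estimate, -0.67, with an SE of 0.42 and overlapping groups (limma, adjusted P = 0.351; by coverage -0.30, adjusted P = 0.282). H2AFJ would be called lower without library 1 of the knockout label (-1.27, unadjusted P = 0.0085, limma) or without control 2 (-0.89, unadjusted P = 0.047).

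Over the 10 members, 1 was called lower and 0 higher (a fold change of 1.5 or more with an unadjusted P below 0.05, the thresholds of the study), while 3.15% of the 14356 genes tested were called lower and 8.61% higher. That split depended on the scaling: 73.2% of all calls were higher in TPM and 49.7% after median ratio scaling. An adjusted P under 0.05 at any fold change was reached by 3 members, all lower, against 7.82% of all genes. The groups did not overlap for 8 of the 10 members, against 60.2% of all genes. The median log2 fold change of the members was -0.14 beside 0.11 for all genes.

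Next, each overexpression line was compared with the shared controls, and the lines with each other. H2AFY2 was lower in all 3 lines, each to its own level. The controls had 17.33 and 19.42 TPM, followed by 10 and 9.70 TPM in line 86, 2.46 and 2.66 TPM in line 79 and 0.67 and 0.36 TPM in line 87. No library of a line overlapped another line or the controls, and libraries of a line differed by at most 0.31 TPM. The log2 fold change was -0.83 in line 86 (SE 0.13, limma, adjusted P = 0.0386), -2.44 in line 79 (adjusted P = 0.000325) and -3.68 in line 87 (adjusted P = 0.000229). These are on the log2(TPM + 1) scale, with the same SE. Line 87 was under the 1 TPM of the filter, so the exact size there carries little weight. In line 86 the adjusted P was 0.18 with a pseudocount of 0.1 and 0.0963 without a filter (limma). It was 0.097 there with only the 4 libraries of line 86 and the controls. With 1 library left out the call held each time, and in line 86 the adjusted P ranged from 0.0464 to 0.187 (limma), where a group left with a lone library is taken to vary like the others. Within each library number series, which holds 1 control and 1 library of every line, the log2 differences ran from -0.74 to -3.91 and all 6 were negative.

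The differences between the lines were tested directly. H2AFY2 was higher in line 86 than in line 79 by 1.61 (SE 0.13, limma, adjusted P = 0.00137), lower in line 87 than in line 79 by a log2 fold change of -1.24 (adjusted P = 0.00303) and lower in line 87 than in line 86 by a log2 fold change of -2.85 (adjusted P = 0.000293). The levels of H2AFY2 did not follow those of RNU11 in order: line 79, with 0.18 and 0.41 TPM of RNU11, had less H2AFY2 than line 86 with 3.98 and 3.72 TPM. With the 6 overexpression libraries taken as 1 group the gene was called, at a log2 fold change of -2.32 (SE 0.79, unadjusted P = 0.0174), but not after adjustment (limma, adjusted P = 0.654), and the call ended when either control was left out (unadjusted P = 0.0653 and 0.0808, limma). With the mean of each line as the unit the unadjusted P was 0.0249 and the adjusted P 0.813, and in the model of 4 groups, whose error is the spread between libraries of a line, the adjusted P was 0.000587 (limma). Its 6 libraries ran from 0.36 to 10 TPM with a median of 2.56 TPM.

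H2AFJ was called higher in lines 79 and 87, with a size that depended on the measure. The controls had 28.21 and 34.13 TPM, followed by 100.66 and 99.10 TPM in line 79, 105.71 and 107.71 TPM in line 87, and 73.20 and 30.30 TPM in line 86. Lines 79 and 87 were above the controls, and the libraries of line 86 lay on both sides of the upper control. The log2 fold change was 1.66 in line 79 (SE 0.36, limma, adjusted P = 0.0371) and 1.75 in line 87 (SE 0.36, unadjusted P = 0.00227, adjusted P = 0.0554, limma). With 1 library left out both calls held, with adjusted P between 0.00223 and 0.165 in line 79 and between 0.00272 and 0.233 in line 87 (limma). Without line 86 replicate 3, the lower of that line, H2AFJ was called higher in line 86 too (1.21, limma, adjusted P = 0.04). Stringtie adds up the TPM of the transcripts of a gene, so the value moves when reads pass from a long to a short transcript. A coverage-based level (aligned bases over all exons of the gene, scaled to TPM) does not depend on that choice. It gave 13.16 and 14.19 in the controls, 21.02 and 21.08 in line 79, 22.41 and 22.91 in line 87, and 15.05 and 13.28 in line 86. On this scale H2AFJ rose by 0.59 in line 79 (limma, adjusted P = 0.00652) and by 0.69 in line 87 (adjusted P = 0.00791), and in line 86 the difference was 0.05 (adjusted P = 0.853). H2AFY2 gave nearly the same value by either measure, at most 0.06 apart on the log2 scale in any line.

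**Figure D2:**
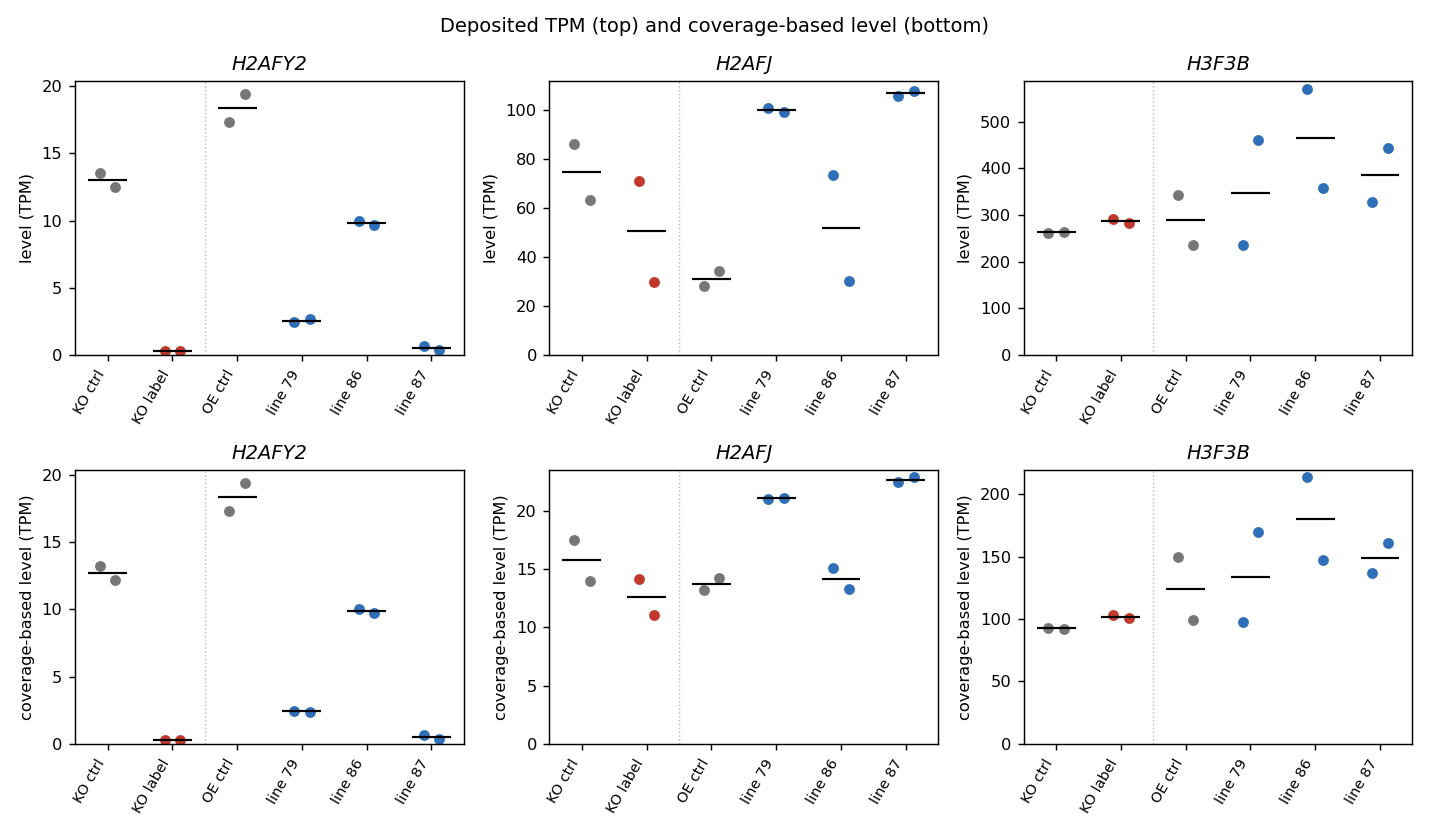
Deposited TPM (upper row) and coverage-based level (lower row) of H2AFY2, H2AFJ and H3F3B in the 12 libraries; points are libraries and bars are group means, on linear axes from 0. H2AFY2 looks alike in both rows, H2AFJ keeps its rise in lines 79 and 87 at a smaller size, and H3F3B spreads within lines in both rows.

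The linker histone H1F0 was lower in every line. The controls had 367.19 and 364.48 TPM, followed by 281.11 and 288.33 TPM in line 79, 314.89 and 322.04 TPM in line 87 and 334.13 and 348.46 TPM in line 86. All 6 libraries lay under both controls. The change was past the adjusted threshold in line 79 (log2 fold change -0.36, SE 0.05, limma, adjusted P = 0.0115) and not in line 87 (-0.20, adjusted P = 0.119) or line 86 (-0.10, adjusted P = 0.507). In line 79 the adjusted P was between 0.0236 and 0.076 with 1 library left out (limma), and 0.0568 with only the 4 libraries of line 79 and the controls. Line 86 was higher than line 79 by 0.26 (SE 0.05, limma, adjusted P = 0.0266), a test of the difference itself. H1FX, at 107.18 and 119.72 TPM in the controls and 110.72 to 133.20 TPM in the lines, passed no test.

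The H1FX share of the linker pair was higher in every treated group. It was 37.3% and 35.2% of the summed TPM of H1FX and H1F0 in the knockout controls and 44.2% and 45.3% in the libraries labelled knockout. It was 22.6% and 24.7% in the overexpression controls and 25.8% to 29.4% in the 6 overexpression libraries, all above both controls. The H1FX share was 27.6% ± 1.35 (SD, n = 6) against 23.7% ± 1.51 (SD, n = 2). A share does not depend on the scaling of a library. By the exact permutation test (two-sided) the overexpression difference had P = 0.0357, the smallest that 6 against 2 libraries can give, and 0.0714 after adjustment over the 4 pairs tested. The test takes the 6 libraries as independent, although they are 3 lines with 2 libraries each and the controls and lines are spread over 2 library number series, so this P is too small. With 2 against 2 libraries P cannot go below 0.333, which the knockout difference of 8.46 percentage points reached. In the macroH2A pair the H2AFY2 share went from 13.2% and 11.7% in the knockout controls to 0.356% and 0.448%, and from 6.35% and 7.33% in the overexpression controls to between 0.152% and 4.00% in the lines (exact permutation P = 0.0357, adjusted 0.0714). By coverage the H2AFY2 share was several times larger, 51.9% and 47.5% in the knockout controls against 2.52% and 3.03%, and 32.9% and 36.4% in the overexpression controls against 1.07% to 23%. The H2AFV share of the H2A.Z pair and the H3F3A share of the H3.3 pair overlapped their controls over the 6 overexpression libraries (exact permutation P = 0.75 and 0.25).

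**Figure D3:**
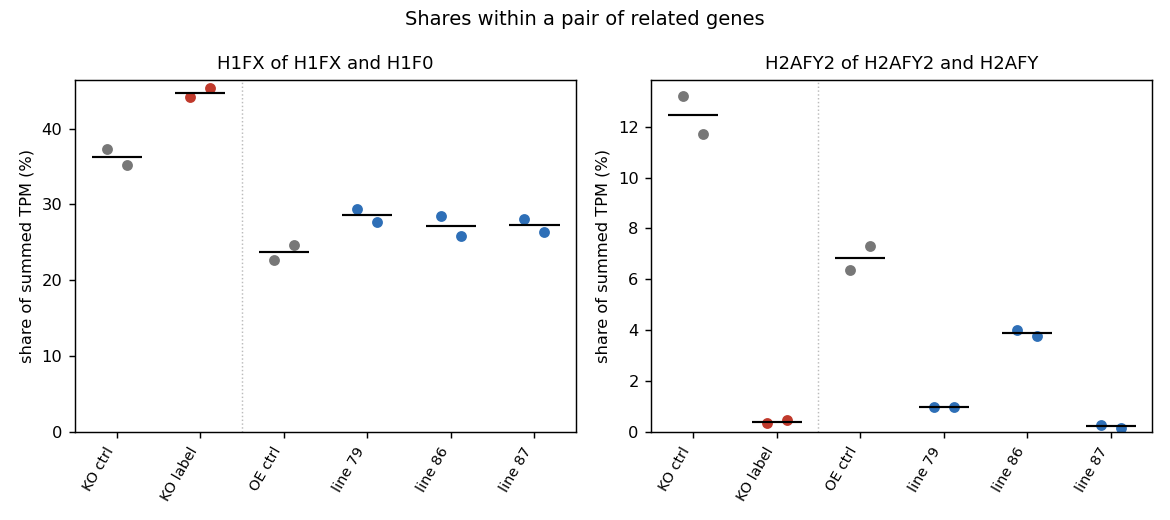
Share of H1FX in the summed TPM of H1FX and H1F0 (left) and of H2AFY2 in that of H2AFY2 and H2AFY (right), in percent from 0; points are libraries and bars are group means. The H1FX share lies above the controls in every treated library, and the H2AFY2 share lies below them.

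Both H2A.Z genes, H2AFV and H2AFZ, were lowest in line 79. The controls had 182.53 and 178.06 TPM of H2AFV, followed by 157.59 and 154.50 TPM in line 79, 188.42 and 182.81 TPM in line 86 and 201.80 and 193.47 TPM in line 87. Line 79 was lowest, and its difference from the controls did not pass adjustment (log2 fold change -0.21, SE 0.06, limma, adjusted P = 0.0785; by coverage -0.23, adjusted P = 0.0207). Lines 86 and 87 were higher than line 79 by 0.25 and 0.34 (limma, adjusted P = 0.037 and 0.0152). H2AFZ was also lowest in line 79, with 1093.7 and 1117.4 TPM in the controls, 1004.2 and 962.04 TPM in line 79, 1127.1 and 1156.9 TPM in line 86 and 1120.4 and 1087.3 TPM in line 87. Line 86 was higher than line 79 by 0.22 (limma, adjusted P = 0.0447), and the difference of line 87 from line 79 was 0.17 (adjusted P = 0.11). For H2AFZ, line 79 against the controls (-0.17, limma, adjusted P = 0.109) did not pass adjustment. Nor did the F test among the lines for H2AFZ (limma, adjusted P = 0.0704). With 1 library left out, the adjusted P of line 86 against 79 was between 0.0616 and 0.158 for H2AFV and between 0.07 and 0.2 for H2AFZ (limma), and that of line 87 against 79 was between 0.0303 and 0.0908 for H2AFV.

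H2AFX lay under both controls in all 6 overexpression libraries, by a margin that no test passed after adjustment. The controls had 315.36 and 330.65 TPM, and in the lines the lowest value was 265.79 TPM and the highest 313.22 TPM. The log2 fold changes were -0.20, -0.22 and -0.09 in lines 79, 86 and 87 (limma, adjusted P = 0.16, 0.273 and 0.62).

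The H3.3 genes and H2AFY gave no call in any line. H3F3A ranged from 390.50 to 565.53 TPM over the lines, against 452.44 and 505.74 TPM in the controls. H3F3B ranged from 235.13 to 570.29 TPM, against 343.00 and 235.03 TPM. The libraries of line 79 alone stood at 235.13 and 460.53 TPM of H3F3B, so the spread within a line was as large as any difference from the controls. H2AFY, the larger source of macroH2A in TPM, stayed between 235.92 and 274.71 TPM in the lines, with 255.68 and 245.55 TPM in the controls. The log2 fold changes of H2AFY against the controls were 0.06, -0.04 and -0.09 in lines 79, 86 and 87, with an SE of 0.07. The drop of H2AFY2 in the lines was thus not matched by a rise of its paralog that passed the test.

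**Figure D4:**
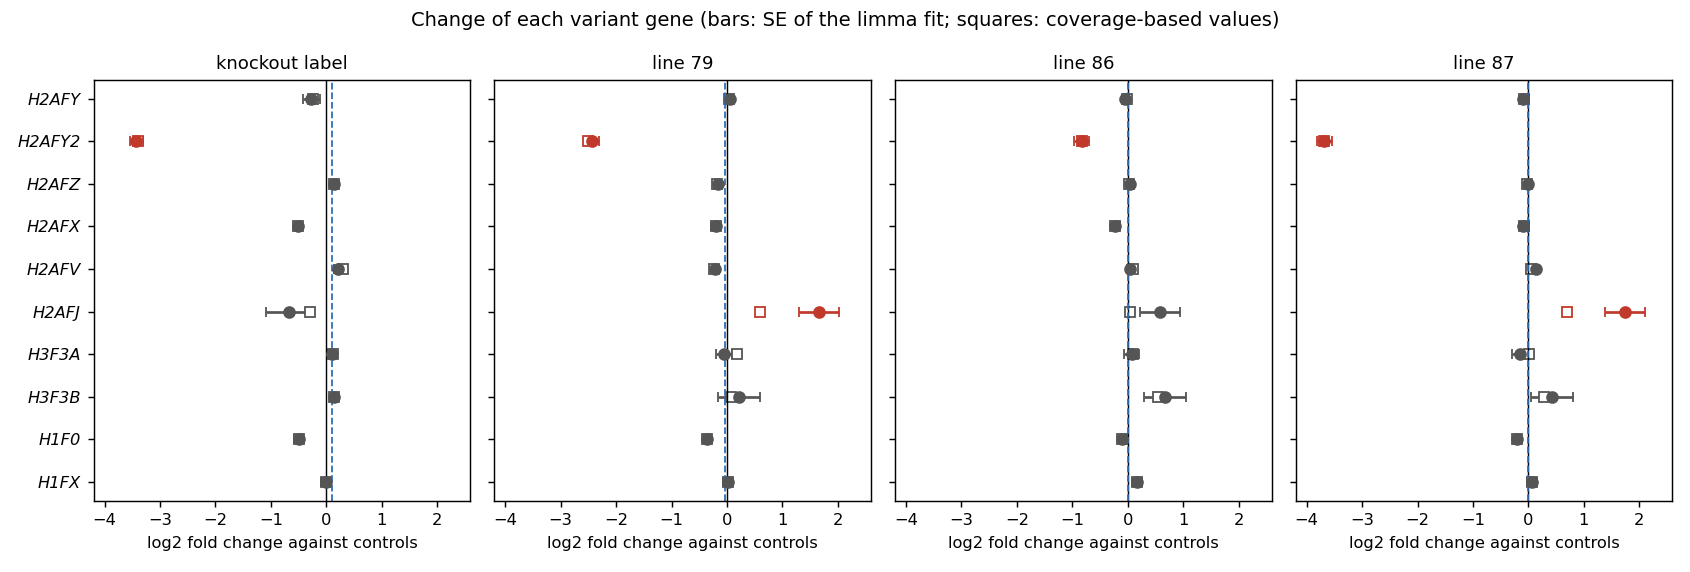
Log2 fold change of each variant gene against its controls, on the log2(TPM + 1) scale, in the libraries labelled knockout and in lines 79, 86 and 87. Circles are the limma estimates with bars of 1 SE, red where called, open squares are the coverage-based estimates, and the dashed line is the median of all genes tested; H2AFY2 is called lower in all 4 panels and H2AFJ called higher in lines 79 and 87.

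In counts, line 79 had 1 member called higher and 1 lower (2.43% and 5.52% of 15768 genes), line 86 had 0 and 1 (1.59% and 2.01%) and line 87 had 1 and 1 (2.08% and 3.05%). With the 6 libraries as 1 group, H2AFJ was called higher and H2AFY2 lower (0.767% and 1.16% of all genes), and neither held after adjustment (limma, adjusted P = 0.619 for H2AFJ). The H2AFJ call ended without overexpression control 1 (unadjusted P = 0.0867, limma) and with coverage (0.44, unadjusted P = 0.065). The 6 libraries lay apart from both controls for 3 members, H2AFY2, H2AFX and H1F0, against 9.87% of all genes. Between lines, 2 members were called for line 86 against 79 (9.80% of all genes), 1 for line 87 against 79 (8.70%) and 2 for line 87 against 86 (6.46%). Of these, H2AFJ in line 86 against 79 (log2 fold change -1.07, adjusted P = 0.113) and in line 87 against 86 (1.16, adjusted P = 0.131, limma) did not pass adjustment. The first of these calls ended without line 79 replicate 1, line 79 replicate 3 or line 86 replicate 3 (-1.05, -1.08 and -0.44), and the second without line 87 replicate 1, line 87 replicate 3 or line 86 replicate 3 (1.17, 1.15 and 0.54). H3F3B would be called for line 86 against 79 without line 79 replicate 3 (0.94, unadjusted P = 0.0449, limma). The median log2 fold changes of the members were -0.11, 0.04 and -0.04 in lines 79, 86 and 87, beside -0.03, 0.01 and -0.01 for all genes. A test of any difference among the 3 lines (F test in limma) had an adjusted P under 0.05 for 3 members, H2AFY2 (0.00027), H2AFV (0.0213) and H1F0 (0.047), against 16.0% of all genes.

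The chromosome around H2AFY2 was lower in line 79 as a whole. Of the 620 genes tested on chromosome 10, 103 were called lower in line 79 (16.6%) and 4 higher, and their median log2 fold change was -0.35, the lowest of the 23 chromosomes with 100 or more genes tested. In lines 86 and 87 the median of chromosome 10 was 0.03, and in the libraries labelled knockout it was -0.04. Within 500000 bases of H2AFY2, 10 other genes were tested. In line 79, 5 of them were called lower, among them AIFM2 (-1.30), which overlaps H2AFY2 on the opposite strand, and TYSND1 (-1.04), with a median of -0.58. In line 87 none was called and the median was 0.04, in line 86 COL13A1 was called higher (0.67), and in the libraries labelled knockout COL13A1 (-0.97) and LRRC20 (-1.44) were called lower. Of all genes, 5.52% were called lower in line 79, 3.15% lower under the knockout label (6.33% on chromosome 10) and 1.59% higher in line 86. H2AFY2 was at -2.44, -0.83 and -3.68 in lines 79, 86 and 87, and at -3.43 under the knockout label. Its neighbours ran from -1.30 to 0.03, -0.31 to 0.67, -0.23 to 0.50 and -1.44 to 0.35 in the same order. Whether the files' counting used strand is not given in the sources used here. The part of the chromosome in any of these H2AFY2 values was not tested.

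Chromosome 7, which holds H2AFV, had the same median in line 79, -0.35 over 779 genes, with 156 called lower (20.0%). Its median was 0.01 in line 86 and -0.02 in line 87. H2AFV (-0.21) lay above the chromosome median of -0.35 in line 79. For lines 86 and 87 against line 79 the chromosome 7 medians were 0.35 and 0.33, beside 0.25 and 0.34 for H2AFV. Of the genes on chromosome 7, 21.4% and 19.0% were called higher there, against 6.3% and 5.64% of all genes. The part of the chromosome in the H2AFV values was not tested. The median of chromosome 11, which holds H2AFX, was -0.12 in the libraries labelled knockout and -0.13 in line 79. Its genes were called lower in 7.18% and 9.76% of cases, beside 3.15% and 5.52% of all genes. For chromosome 22, which holds H1F0, the medians were 0.12 and -0.02, with 3.27% and 2.75% called lower. The part of these chromosomes in the H2AFX and H1F0 values was not tested.

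**Figure D5:**
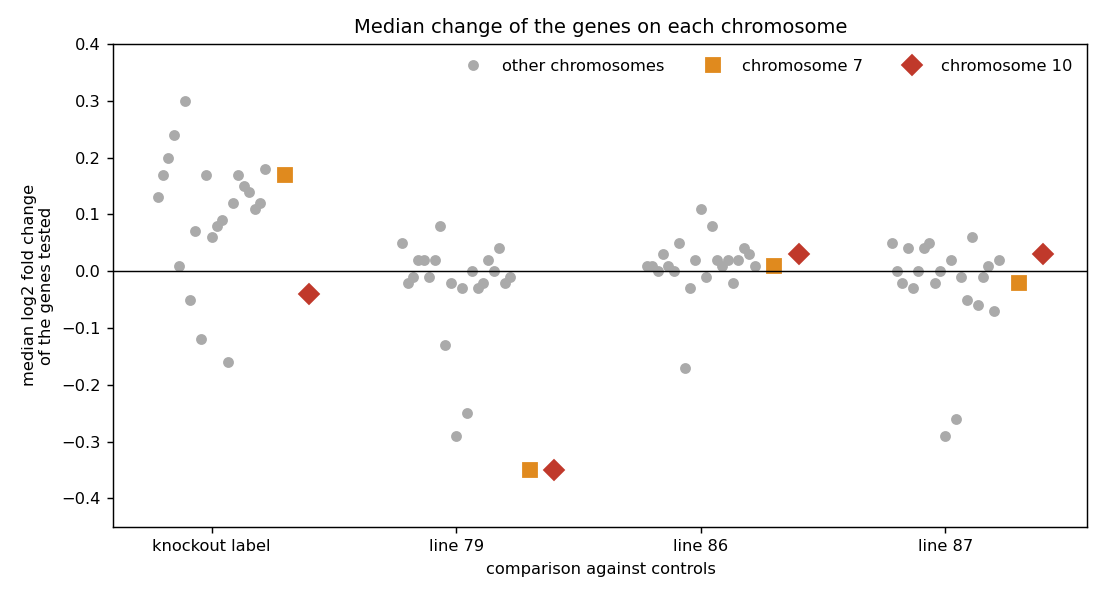
Median log2 fold change of the genes tested on each chromosome (points; chromosomes 1 to 22 and X) against controls, with chromosome 7 (orange square) and chromosome 10 (red diamond) marked. Both lie at -0.35 in line 79 and near 0 in lines 86 and 87.

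The genes with the pattern most like H2AFY2 were ADAMTS1 (Pearson r = 0.991), UTP14C, MAGEF1 (both 0.979), THBS1 and TAGLN (both 0.978), over the 8 libraries of the overexpression comparison and among 11166 genes with a mean of at least 5 TPM. These libraries share controls and lines, so the likeness is a description. THBS1, which encodes the matrix protein thrombospondin, had means of 196, 178, 96.0 and 48.4 TPM in the controls and lines 86, 79 and 87. In the knockout comparison none of the 5 fell with H2AFY2. THBS1 rose there by 1.48 (limma, adjusted P = 0.0118), from 203 to 574 TPM, and the other 4 did not pass adjustment (0.03 to 0.46, adjusted P from 0.151 to 0.857).

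All 31 chaperones and exchange factors on the list were tested in each comparison, and the counts called were 2 higher and 1 lower for the knockout label, beside 8.61% and 3.15% of all genes. In the libraries labelled knockout, VPS72 (an H2A.Z-binding subunit of the SRCAP complex, 35.1 against 16.8 TPM, 0.99) and ASF1A (an H3-H4 chaperone, 15.1 against 9.26 TPM, 0.66) were called higher. SSRP1, a subunit of the chaperone FACT, was called lower (106 against 171 TPM, -0.69). Of these SSRP1 alone passed adjustment (limma, adjusted P = 0.0203, against 0.0765 and 0.0669), and the median of the list was -0.01 beside 0.11 for all genes. In line 79 DAXX, an H3.3 chaperone, was called lower (44.9 against 69.9 TPM, -0.61, limma, adjusted P = 0.126), beside 5.52% of all genes called lower. In lines 86 and 87 no chaperone was called, beside 1.59% to 3.05% of all genes per direction. The medians in lines 79, 86 and 87 were -0.05, 0.01 and -0.04, beside -0.03, 0.01 and -0.01 for all genes. Line 86 had less SET, a histone-binding protein, than line 79 (699 against 1180 TPM, -0.77, limma, adjusted P = 0.0135). In that comparison 0 of the 31 were called higher and 1 lower, beside 6.3% and 3.5% of all genes. The shares called also differed by chromosome. For line 86 against 79, 21.6% of the genes on chromosome 9 were called lower. Under the knockout label 22.6% were called higher on chromosome 6 and 7.18% lower on chromosome 11. The part of the chromosome in the values of the list genes was not tested.

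Among the 12 genes of H2AX signalling 11 were tested. None was called in the libraries labelled knockout, line 86 or line 87, and BAZ1B, the kinase of a tyrosine of H2AX, was called lower in line 79 (67.1 against 101 TPM, -0.59, limma, adjusted P = 0.00465). BAZ1B lies on chromosome 7. All 7 genes for processing of histone mRNA, among them the stem-loop binding protein SLBP, were tested and none was called in any comparison. Of all genes, 1.59% to 8.61% were called per direction in the knockout comparison and the lines. Of the other variants, CENPA (32.64 to 68.87 TPM over all libraries) and H3F3C (4.37 to 8.65 TPM) were tested and not called, and the other 8 stayed under 1 TPM in every library.

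The replication-dependent histones were measured well only in the knockout comparison, where 70 of 89 were tested. There 0 were called higher and 4 lower, beside 8.61% and 3.15% of all genes, with a median of -0.22 beside 0.11. All 4, among them HIST2H3D, HIST4H4 and HIST1H2BE, passed adjustment. H2AFX, whose stem-loop fits the same general letters in a form that no HIST gene carried, was at -0.51. A link between these changes was not tested. In the lines 30 were tested. In line 79, 1 was called higher and 1 lower, beside 2.43% and 5.52% of all genes. The counts were 0 and 5 in line 86 (1.59% and 2.01%) and 0 and 1 in line 87 (2.08% and 3.05%). For line 86 against 79, 0 were called higher and 11 lower, 6 of them after adjustment, beside 6.3% and 3.5% of all genes. The counts were 0 and 3 for line 87 against 79 (5.64% and 3.06%) and 1 and 1 for line 87 against 86 (2.99% and 3.47%). Of 15 proliferation genes none was called in the libraries labelled knockout (median -0.19, beside 0.11 for all genes) or in lines 86 and 87 (-0.02 and -0.01, beside 0.01 and -0.01). MCM7, a subunit of the replicative helicase that also lies on chromosome 7, was called lower in line 79 (176 against 289 TPM, -0.71, limma, adjusted P = 0.00463). In bulk RNA, fewer cells in S phase and less RNA per cell cannot be told apart. Markers of other cell types moved in single genes. Of 4 endothelial markers CDH5 alone was tested, at 33.2 against 3.25 TPM in line 79 and 0.0304 against 4.80 TPM in the libraries labelled knockout, while PECAM1, VWF and KDR stayed at or under 0.30 TPM. Their summed level was 4.82 to 4.94 TPM in the knockout controls, 0.10 to 0.14 TPM under the knockout label, 3.16 to 3.53 TPM in the overexpression controls and 32.40 to 34.24, 4.47 to 4.79 and 4.30 to 5.38 TPM in lines 79, 86 and 87. The summed level of the 4 leukocyte markers was 1.16 to 3.49 TPM in the knockout controls, 2.69 to 2.72 TPM under the knockout label, 3.22 to 3.65 TPM in the overexpression controls and 4.34 to 5.57, 3.27 to 4.74 and 6.32 to 7.75 TPM in the lines in the same order. Of these 4, CD68 was called higher in line 87 (6.29 against 2.97 TPM, 0.88, limma, adjusted P = 0.0645). The epithelial marker KRT19 was called lower under the knockout label (91.6 against 154 TPM, -0.74, limma, adjusted P = 0.0194), and GATA3 higher there (5.14 against 2.65 TPM, 0.75, adjusted P = 0.0553) and lower in line 87 (6.54 against 15.5 TPM, -1.12, adjusted P = 0.0158). The part of other cells in the results was not tested.

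Reads of near-identical copies limit some values. The tables list 5 pseudogenes of H3F3A, which together held 18.0% to 30.9% as much TPM as the gene, so H3F3A is uncertain. The 5 copies of H2AFZ held at most 0.562% and the 2 of H3F3B at most 2.90%. On the opposite strand H2AFY2 overlaps AIFM2 (5.23 to 28.11 TPM) and H3F3B overlaps UNK (11.78 to 27.24 TPM).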

How the data were processed

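RNA of 12 T24 libraries was measured. The authors trimmed reads with fastp, aligned them to hg38 with Hisat2 and ran Stringtie on each library. The deposited tables give TPM, FPKM and coverage (a signal: mean aligned bases per position) for each gene, as made by the authors, and no counts, so the DESeq2 test that the authors used was not run. Groups came from the labels. Members and gene lists were chosen with earlier results of these data known, and all 10 members are named. Called genes of the lists are named for the knockout comparison and for each line against its controls, at most 3 per direction. HIST genes are named for the knockout comparison only. Of the list genes called between lines, SET alone is named. The genes most alike are the 5 with the highest Pearson correlation with H2AFY2.

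Models were fitted to log2(TPM + 1) by limma 3.58.1 under R 4.3.3 (lmFit, then eBayes with a trend) for genes reaching 1 TPM in no fewer than 2 of the libraries compared, and P values were adjusted by the Benjamini-Hochberg method over these genes. The lines and their controls shared a fit of 4 groups. Shares were compared by exact permutation tests. Python 3.11.15, numpy 2.4.6, pandas 2.3.3 and matplotlib 3.10.9 were used. The pipeline was tested on simulated data. Alternatives were a pseudocount of 0.1, other filters, FPKM, median ratio scaling, quantile normalization, no trend, other sets of libraries, a replicate block, adjusted P and leaving out each library. The coverage-based fold changes were added after seeing the data. Counting intervals were not computed because read counts cannot be had from TPM. A gene of the marker lists was left out and is not reported here.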

Additional observations from a re-analysis of the deposited data

Results flagged for a closer look

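H2AFY2 differed between the overexpression lines by a test of the difference itself (limma on log2(TPM + 1)): by 1.61 for line 86 against line 79, by -1.24 for line 87 against line 79 and by -2.85 for line 87 against line 86. In H2AFY, a single library stood apart from the other 5 overexpression libraries, line 79 replicate 3 at 274.71 TPM. All 10 members were examined for such a library, and chance gives about 1 in 20 groups.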

How the results depend on the processing

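The direction of every called member held under all alternatives. With a filter of 1 TPM in every library, H2AFY2 is no longer tested, and members called dropped to 0 in the knockout comparison, 1 in the pooled overexpression comparison, 1, 0 and 1 in lines 79, 86 and 87, and 1, 0 and 1 in lines 86 against 79, 87 against 79 and 87 against 86. In the knockout comparison 3 members were called with FPKM or median ratio scaling (H2AFX and H1F0 added). With coverage, 1 was called in the pooled overexpression comparison and 1 in line 86 against 79. With adjusted P the counts were 0 in the pooled comparison and 1 each in line 87, line 86 against 79 and line 87 against 86. With only the 4 libraries of lines 86 and 79, 1 was called.

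The replicate block raised the knockout count to 2 (H2AFJ added, limma, adjusted P = 0.185). Pairing was judged by the correlation of deviations from the group means. It was 0.02 between replicate 1 of the knockout label and of its controls. Between overexpression libraries of the same library number series it was 0.07 to 0.15, so neither kind of number was taken as a pair. The block changed no other count of members. With the block the adjusted P was 0.0927 for H2AFX and 0.11 for H1F0 in the knockout comparison and 0.0571 for H2AFY2 in line 86 (limma). In line 86 against 79 the adjusted P of H2AFZ, H2AFV and H1F0 was above 0.05 with median ratio scaling (0.125, 0.0871 and 0.0541), quantile normalization (0.0543, 0.0776 and 0.0524), no trend (0.124, 0.0847 and 0.0724) and 4 libraries (0.121, 0.103 and 0.092).

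Leaving out each library gave 0 to 2 called members in the knockout and pooled comparisons, 2 to 2 in lines 79 and 87, 1 to 2 in line 86, in line 86 against 79 and in line 87 against 86, and 1 to 1 in line 87 against 79. Without either knockout control, H2AFY2 reaches 1 TPM in fewer than 2 libraries and is not tested. Without line 86 replicate 3, H2AFJ was called higher in line 86 (1.21) and no longer called for line 86 against 79 (-0.44) or line 87 against 86 (0.54).

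Coverage is not scaled to the transcripts in use, so the ratio of a pair of genes shifts with it: the difference in the H2AFY2 share was -46.9 percentage points in the knockout comparison, -24.5 in the pooled one and -28.2, -12.3 and -33.1 in lines 79, 86 and 87. By coverage that of the H2AFV share was 1.79 in the knockout comparison, 0.484 in line 86 and 0.459 in line 87.

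Over all genes, calls ranged from 984 to 2511 (1688 as reported) in the knockout comparison, 26 to 469 (304) in the pooled one, and 749 to 1577 (1254), 216 to 765 (568) and 411 to 1023 (809) in lines 79, 86 and 87. Between lines they ranged from 956 to 1926 (1546) for 86 against 79, 855 to 1697 (1372) for 87 against 79 and 585 to 1316 (1019) for 87 against 86. The share of knockout calls that were higher was 73.2%, and 55.7%, 49.7% and 51.7% with FPKM, median ratio scaling and quantile normalization. In line 79 it was 30.5%, and 43.0% with quantile normalization. In line 86 against 79 it was 64.3%, and 53.7% with quantile normalization. The causes of these differences between settings were not tested.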
